A study of Mus musculus with 12 samples.

Results

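The 8 genes described here encode parts of the Nodal signalling pathway: the ligands Nodal and Gdf3, the co-receptor Tdgf1 (also called Cripto), the receptor Acvr2b, the secreted antagonists Lefty1, Lefty2 and Cer1, and the transcription factor Foxh1. They were listed by name, with earlier results of these data known. Each was measured as the sum of the counts of its RefSeq transcripts, and the 8 stand among 38911 genes listed in the same way. All 8 passed the filter on low counts, which left 16966 genes for testing.

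Nodal is a secreted protein of the TGF-beta superfamily. It binds type I and type II activin receptors together with an EGF-CFC co-receptor, and the receptors then phosphorylate Smad2 and Smad3, which act in the nucleus with Smad4 and factors such as Foxh1. In the gastrulating mouse embryo the pathway is known for inducing the primitive streak, mesoderm and endoderm, and it switches on its own ligand as well as Lefty1 and Lefty2, which hold it back.

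The samples were gastruloids, aggregates of mouse embryonic stem (ES) cells that form germ layer derivatives and elongate in culture. All came from the single ES cell line E14TG2a, were kept in 2i and LIF before aggregation, were seeded at 200 cells per gastruloid and were harvested on day 4. Per the paper's methods, all gastruloids were given a Wnt agonist before day 3 to induce mesoderm. From day 3 to day 4 they received medium with no glucose (0X), 21.25 mM glucose (1X, the control), 63.75 mM glucose (3X), or 5 mM 2-deoxyglucose (2-DG, a glucose analogue that hexokinase phosphorylates) in 1X glucose medium. Each treatment has 3 libraries of polyA RNA, 1 each from ES cells at passage 13, 15 and 16 (P13, P15 and P16). Each library holds pooled gastruloids from 1 plate. The paper's methods describe treatments made within the same plate, so the libraries of a passage may share one. Within a passage there is thus 1 library per treatment, and the labels name no vehicle in the 1X group. The comparison of 2-DG with 1X glucose asks what 2-DG does to the tissue, and those of 0X and 3X with 1X ask whether the glucose supply itself has such effects.

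The 12 libraries held 31902471 to 45956080 counts. In bulk RNA, fewer cells of a type and less RNA per cell cannot be told apart. The libraries carried gastruloid tissue by their markers: the paraxial mesoderm list (Tbx6, Msgn1, Dll1, Hes7, Meox1 and Tcf15) summed to 830 to 1632 CPM (counts scaled to the depth of the library), and naive pluripotency genes summed to 9.09 to 14.5 CPM. Of 5 visceral endoderm markers Ttr and Afp had 0 counts in all 12 libraries, Apoa1 and Apoa2 had at most 6, and Amn at most 19, and their sum was 0.062 to 0.61 CPM. With 2-DG the primitive streak and tail bud list (T, Mixl1, Eomes, Fgf8, Wnt3a and Nkx1-2) summed to 196 to 252 CPM against 344 to 768 CPM in 1X glucose, and 3 of its 6 genes (T, Wnt3a and Mixl1) fell, where 8.51% of all genes tested were called lower by edgeR (adjusted p below 0.05). With the passage as a replicate block Nkx1-2 was called lower as well. Fgf8 did not follow the sum. It had 86.9, 71.9 and 79.0 CPM with 2-DG in P13, P15 and P16 against 110, 59.7 and 67.0 CPM in 1X glucose. The neural list (Sox1, Sox2, Sox3 and Pax6) summed to 99.3 to 250 CPM with 2-DG and to 54.8 to 158 CPM in 1X glucose, and 2 of its 4 genes (Sox1 and Pax6) rose, where 9.12% of all genes were called higher. In the blocked fit, which called 41.3% of all genes, all 4 were higher. Definitive endoderm genes (Sox17, Foxa1, Foxa2, Hhex and Trh) summed to 19.001 to 25.7 CPM with 2-DG against 28.3 to 53.5 CPM in 1X glucose. Most of this difference in the sum was Trh alone, with 10.6 to 13.4 CPM with 2-DG against 21.8 to 39.3 CPM. Of the 5 genes 1 was called lower (Trh). With the block 3 were lower (Sox17, Foxa2 and Trh) and 1 was higher (Foxa1), so the sum does not describe the list as a whole. The naive pluripotency list summed to 12.6 to 14.5 CPM with 2-DG against 9.09 to 11.3 CPM, with 1 of 6 called higher (Tfcp2l1), and with the block 2 higher and 1 lower. Of 6 shared pluripotency and epiblast genes tested, Pou3f1 was called higher, and with the block Pou5f1, Nanog and Fgf5 were too. Of the 6 paraxial mesoderm genes 1 was called lower and 0 higher, and with the block 3 lower and 0 higher. Of 5 node and notochord genes (Noto, Foxj1, Shh, Chrd and Nog) 2 were called lower and 1 higher in both fits. Over all genes 17.6% were called without the block and 41.3% with it. The part that these shifts in markers have in the values of the pathway genes was not tested.

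Lefty1 and Lefty2 are shown by sequence because they are neighbouring copies whose reads can be confused. In the GRCm38 mouse genome Lefty2 lies on chr1:180893108-180899107 and Lefty1 on chr1:180935022-180938401, both on the plus strand and 35914 bases apart. Their coding sequences are 1107 bases each and 91.9% identical, with a longest identical run of 140 bases. The 60-base stretch in which they differ most, at coding bases 34 to 93 counted from the A of the start codon, has 18 differences, written in capitals:
Lefty1: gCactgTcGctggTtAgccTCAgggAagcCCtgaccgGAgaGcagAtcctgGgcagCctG
Lefty2: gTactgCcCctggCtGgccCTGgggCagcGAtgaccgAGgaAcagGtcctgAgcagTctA
Reads from that stretch tell the copies apart. A stretch of equal length at coding bases 272 to 331 is the same in both:
Lefty1 and Lefty2: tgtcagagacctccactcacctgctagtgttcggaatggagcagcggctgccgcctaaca
Of all 50-base windows of the Lefty1 mRNA, 17.9% also occur in the Lefty2 mRNA, and 11.6% of the Lefty2 windows occur in Lefty1. How the authors' counting divided such reads is not given in the sources used here, so small differences between the copies are uncertain.

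The other genes lie apart from each other: Nodal on chr10:61417972-61425338, Gdf3 on chr6:122605403-122610087, Tdgf1 on chr9:110939608-110946158, Acvr2b on chr9:119401583-119442148, Cer1 on chr4:82881751-82885151 and Foxh1 on chr15:76667829-76671614. The 250 bases before the start are shown for Nodal, the ligand, and for Cer1, the gene whose level varied most, in the direction of transcription with the letters CAGACA (a Smad binding motif) in capitals. They come from RefSeq on GRCm38.p6, the first from the plus strand of chr10:61417722-61417971 and the second from the minus strand of chr4:82885152-82885401:
Nodal: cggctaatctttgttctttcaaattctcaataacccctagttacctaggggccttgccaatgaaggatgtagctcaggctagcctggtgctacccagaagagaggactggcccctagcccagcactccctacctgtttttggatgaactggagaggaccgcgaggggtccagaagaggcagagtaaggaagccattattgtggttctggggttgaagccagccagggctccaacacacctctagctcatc
Cer1: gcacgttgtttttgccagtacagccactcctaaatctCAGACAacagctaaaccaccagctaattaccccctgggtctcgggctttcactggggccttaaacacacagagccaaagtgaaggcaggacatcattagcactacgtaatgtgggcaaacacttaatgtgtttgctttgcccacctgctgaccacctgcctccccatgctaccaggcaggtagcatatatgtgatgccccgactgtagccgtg
Cer1 held CAGACA 213 to 208 bases before its start, as did 17.1% of 32851 mouse promoters of that length searched on both strands. The table had promoters for 4 of the 8 genes (Nodal, Cer1, Tdgf1 and Acvr2b). None of the 4 held the FoxH1 letters AATCCACA (0.718% of all promoters), the T-box letters AGGTGTGA (1.12%), the Tcf/Lef letters CTTTGAT (3.21%) or the bicoid-type homeodomain letters TAATCC (6.25%), whose last 5 letters are the first 5 of the FoxH1 motif. A match describes letters in this window and says nothing of binding.

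The 8 genes were present at very unequal levels. Per kilobase of mRNA, Acvr2b stood at 78.2 ± 12.7 CPM in 1X glucose (SD, n = 3), an approximate level, because the length used is that of the longest matched transcript, which held 17.4% to 62.9% of its counts. Cer1 averaged 40.6 CPM per kilobase there, but its 3 libraries spread from 0.35 to 92.3. Foxh1 stood at 31.2 ± 6.35 CPM per kilobase, also approximate, because 80.8% to 88.9% of its counts were assigned to a predicted transcript and the length used is that of the curated one. The ligands, the Lefty genes and Tdgf1 lay far lower, from 1.22 CPM per kilobase for Lefty2 through Gdf3 (1.03), Lefty1 (0.80) and Nodal (0.63) to 0.42 for Tdgf1. In that order the libraries of each of these 5 genes overlapped those of its neighbour. The receptor and the transcription factor were thus abundant in this tissue, and the ligands scarce.

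**Figure D1:**
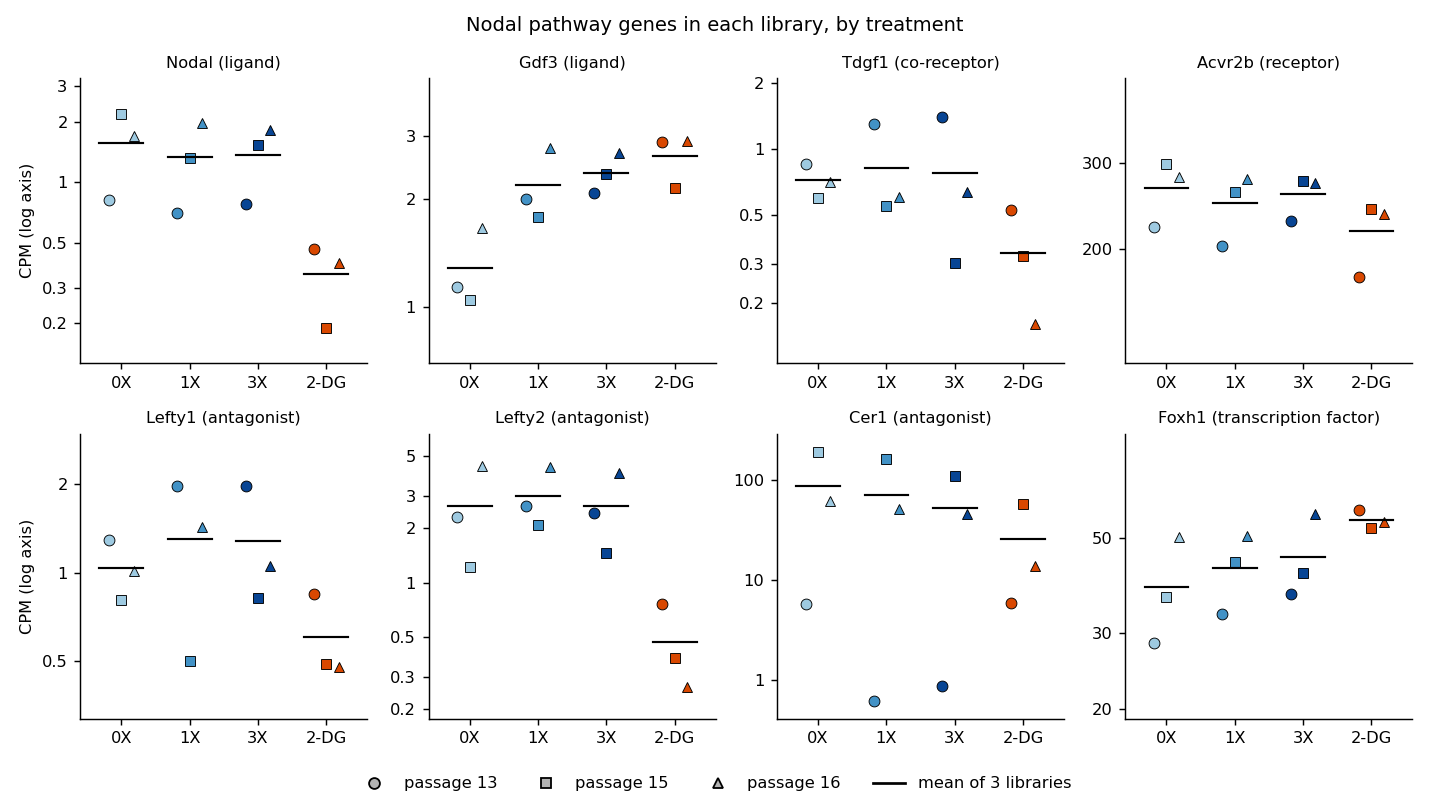
CPM (log axis) of the 8 genes in each of the 12 libraries, by treatment, with the marker shape giving the passage and the line the arithmetic mean of 3 libraries. Nodal and Lefty2 with 2-DG lie below all 9 libraries without it, and Cer1 is lowest in passage 13 within each treatment.

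Nodal and Lefty2 fell with 2-DG, and none of the 8 genes passed the test between glucose concentrations. Of the 8, 2 were called lower and 0 higher in 2-DG than in 1X glucose by edgeR's quasi-likelihood test at an adjusted p below 0.05. Over all genes tested 17.6% were called in this comparison, 8.51% as lower and 9.12% as higher in 2-DG. The median log2 fold change of the 8 genes was -1.20, and that of all genes tested was 0.0023. With the passage as a replicate block 5 genes were called lower and 1 higher, where 41.3% of all genes were called. Values of the blocked fit stand with each gene whose call it changed.

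Nodal, the ligand that names the pathway, had 0.70, 1.32 and 1.97 CPM in 1X glucose in P13, P15 and P16. With 2-DG it had 0.47, 0.19 and 0.40 CPM in the same order. All 3 treated libraries were below all 3 controls, and the smallest gap within a passage was in P13. The fitted level was 3.75-fold lower (log2 fold change -1.91, SE 0.52, edgeR adjusted p = 0.0306). The counts behind these values were low, 7 to 16 with 2-DG and 32 to 91 in 1X glucose. The call was lost without the P13, the P15 or the P16 library of 2-DG (adjusted p = 0.0544, 0.106 and 0.0708), and without the P15 or the P16 library of 1X glucose (0.0701 and 0.0965).

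Gdf3, a ligand of the same family that also acts through the EGF-CFC co-receptor, was not lower in any passage. It had 2.00, 1.79 and 2.79 CPM in 1X glucose and 2.90, 2.15 and 2.90 CPM with 2-DG. The groups overlapped, and each 2-DG library was above the control of its passage. The log2 fold change was 0.27 (SE 0.23, edgeR adjusted p = 0.466).

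Tdgf1, the co-receptor that Nodal needs for signalling, had 1.30, 0.55 and 0.60 CPM in 1X glucose. With 2-DG it had 0.53, 0.33 and 0.16 CPM, so that each treated library lay below every control, the nearest pair by 0.025 CPM. Its counts were among the lowest of the 8 genes, 6 to 18 with 2-DG. The log2 fold change of -1.28 (SE 0.58) did not pass the test (edgeR adjusted p = 0.154), and with the passage as a block it was -1.26 (adjusted p = 0.0151). RefSeq lists 2 pseudogenes of Tdgf1 on other chromosomes, and reads shared with them make its low counts more uncertain.

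Acvr2b, a type II activin receptor that Nodal shares with activin, had 203, 262 and 279 CPM in 1X glucose and 175, 242 and 237 CPM with 2-DG. Each 2-DG library was below the control of its passage, although the groups overlapped. The log2 fold change was small, -0.19 (SE 0.16, edgeR adjusted p = 0.469), and with the passage as a block it was -0.19 (adjusted p = 0.00594). The gene has 5 listed transcripts among which the estimated shares moved widely between libraries, 1 of them from 0.60% to 45.0%, and its reading rests on their sum.

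Lefty2, a secreted antagonist induced by Nodal signalling, showed the largest change of the 8 genes. It had 2.66, 2.08 and 4.32 CPM in 1X glucose and 0.76, 0.38 and 0.27 CPM with 2-DG. The highest treated library was well below the lowest control. The fitted level was 6.45-fold lower (log2 fold change -2.69, SE 0.58, edgeR adjusted p = 0.0107), from 10 to 26 counts with 2-DG and 79 to 200 in 1X glucose. The gene remained called without any 1 library, and it was not called with all libraries of P15 or of P16 left out (adjusted p = 0.0868 and 0.0733).

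Lefty1, which in the embryo marks the anterior visceral endoderm and the left side of the floor plate, had 1.98, 0.50 and 1.43 CPM in 1X glucose. With 2-DG it had 0.85, 0.49 and 0.48 CPM. The P15 libraries were level, and those of P13 and P16 were 2.33-fold and 2.97-fold lower with 2-DG. The log2 fold change of -1.11 (SE 0.49) did not pass the test (edgeR adjusted p = 0.147), and in the blocked fit it was -1.05 (adjusted p = 0.00918). Without the P15 library of 1X glucose it passed as well (log2 fold change -1.50, adjusted p = 0.0446).

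Cer1, an antagonist of Nodal, BMP and Wnt ligands made by anterior endoderm and by nascent somites, gave no single direction. In 1X glucose it had 0.61, 161 and 50.7 CPM in P13, P15 and P16, and with 2-DG it had 5.91, 57.6 and 13.8 CPM. In P15 and P16 the 2-DG library was 2.79-fold and 3.66-fold lower than the control, and in P13 it was 9.62-fold higher. The log2 fold change was -1.45 (SE 1.64, edgeR adjusted p = 0.608), with a standard error larger than the change, and without all P13 libraries it was -1.56. In the blocked fit it was -1.07 (adjusted p = 0.131).

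Foxh1, the Smad partner that carries the signal to target promoters, had 33.3, 44.0 and 50.4 CPM in 1X glucose and 58.1, 52.8 and 54.4 CPM with 2-DG. All treated libraries were above all controls, and the 2-DG libraries were also the closest to each other. The log2 fold change was 0.37 (SE 0.22, edgeR adjusted p = 0.276), and with the passage as a block it was 0.40 (adjusted p = 0.0309). Foxh1 overlaps Kifc2 on the opposite strand over 368 bases, and Kifc2 had 89 to 211 counts where Foxh1 had 905 to 2334. Whether the counting used strand is not given in the sources used here.

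Seen over the 8 genes, the groups did not overlap for Nodal, Lefty2, Tdgf1 and Foxh1, that is 4 of 8, where 35.4% of all genes tested did not overlap. The low genes Nodal, Lefty1, Lefty2 and Tdgf1 had negative fold changes in all 3 passages, that of Lefty1 in P15 from 18 against 19 counts. Acvr2b, high and lower by 12.3%, also did so. Foxh1 and Gdf3 had positive ones in all 3 passages.

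**Figure D2:**
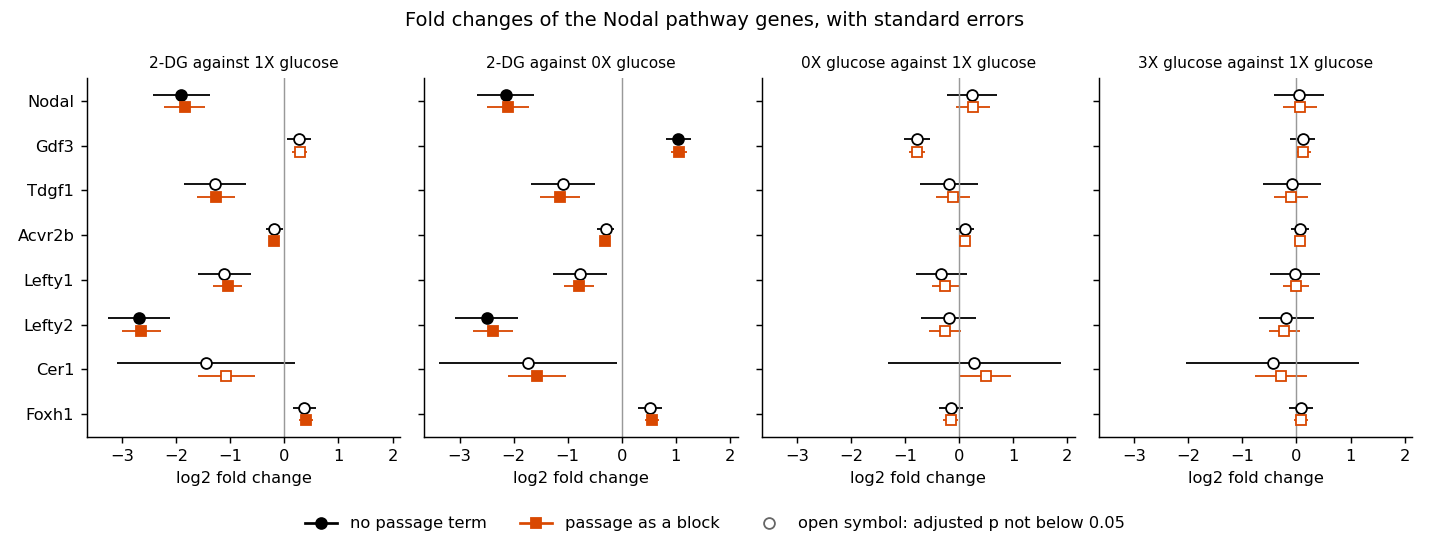
Log2 fold changes (x axis) of the 8 genes in 4 comparisons, with bars of 1 standard error; circles are the fits without a passage term, squares those with the passage as a block, and filled symbols mark an adjusted p below 0.05. Nodal and Lefty2 are filled in both fits in both 2-DG comparisons, and no symbol is filled between glucose concentrations.

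The comparison of 2-DG with no glucose sets 2 treatments that both limit glucose use against each other. The paper states that 2-DG can also take the place of mannose in protein glycosylation. This comparison uses the same 2-DG libraries as the previous one. In it 3 of the 8 genes were called, 2 lower (Nodal and Lefty2) and 1 higher (Gdf3), where 18.9% of all genes were called, 9.04% as lower and 9.86% as higher. Nodal had 0.82, 2.18 and 1.70 CPM in 0X glucose, all above the 2-DG libraries (log2 fold change -2.15, SE 0.53, edgeR adjusted p = 0.0175). Lefty2 had 2.30, 1.22 and 4.41 CPM in 0X glucose, again all above 2-DG (log2 fold change -2.50, SE 0.58, adjusted p = 0.0143). These calls depended on single libraries: without the P15 library of 0X glucose Nodal had an adjusted p of 0.0645, without that of 2-DG both genes missed the test (0.0658 for Nodal and 0.0556 for Lefty2), and Lefty2 also missed it without the P16 library of 0X glucose (0.0513) or of 2-DG (0.0556).

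Gdf3 differed from the other called genes in that 0X glucose was its lowest treatment. It had 1.14, 1.05 and 1.66 CPM without glucose, and each of these was below all libraries of the other 3 treatments. Against 2-DG the fitted level in 0X glucose was 2.07-fold lower (log2 fold change 1.05 for 2-DG against 0X, SE 0.24, edgeR adjusted p = 0.0123), and without the P15 library of 0X glucose the adjusted p was 0.0505. Against 1X glucose it was 1.71-fold lower (log2 fold change -0.77, SE 0.24), lower in 3 of 3 passages, with an unadjusted edgeR p of 0.00756 that did not pass the correction over all genes (adjusted p = 1.00).

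The remaining 5 genes did not pass the test between 2-DG and 0X glucose. Their log2 fold changes were -0.78 for Lefty1, -1.09 for Tdgf1, -0.30 for Acvr2b, -1.73 for Cer1 and 0.52 for Foxh1, and the edgeR adjusted p was between 0.123 (Foxh1) and 0.515 (Cer1). The blocked fit called all 8 genes, where 43.1% of all genes were called. In that fit Lefty1 had an adjusted p of 0.0405, Tdgf1 0.0277, Acvr2b 0.000376, Cer1 0.0370 and Foxh1 0.00642, and their fold changes were -0.79, -1.14, -0.30, -1.57 and 0.56 on the log2 scale.

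Glucose concentration moved none of the 8 genes past the test. In 0X against 1X glucose edgeR called 0 of 8, where 0.0118% of all genes were called, and in 3X against 1X glucose it called 0 of 8, where 0% were. At an unadjusted p under 0.05 the counts were 1 of 8 (Gdf3) and 0 of 8. DESeq2 also called 0 in both, and with the passage as a block edgeR called 0 of 8 in each, where 0.0177% and 0% of all genes were called. The log2 fold changes in 0X ranged from -0.77 for Gdf3 to 0.28 for Cer1, and in 3X from -0.44 for Cer1 to 0.12 for Gdf3.

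The precision of these null results differed between the genes. For Acvr2b the change was 0.11 (SE 0.16) in 0X and 0.064 (SE 0.16) in 3X on the log2 scale. For Nodal it was 0.24 (SE 0.47) and 0.051 (SE 0.47), and for Cer1 0.28 (SE 1.60) and -0.44 (SE 1.60). A change of 2-fold in Acvr2b would thus lie far outside its error, and such a change in Cer1 would not.

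In 3X glucose Nodal had 0.78, 1.52 and 1.81 CPM, and Lefty2 had 2.44, 1.46 and 4.04 CPM. For both genes the passages stood in the same order as in 1X glucose. Tdgf1 had 1.39, 0.30 and 0.64 CPM in 3X glucose, so its P15 library there was as low as the 2-DG library of that passage (0.33 CPM).

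All 8 genes differed between passages of the ES cells. A test of the passages with the treatments in the model called all 8, where 46.2% of all genes tested were called. The median span between the highest and lowest passage was 1.09 on the log2 scale for the 8 genes, and 0.23 for all genes. A passage is here 1 series of cultures with 4 libraries, and what else differed between the series is not given in the sources used here.

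**Figure D3:**
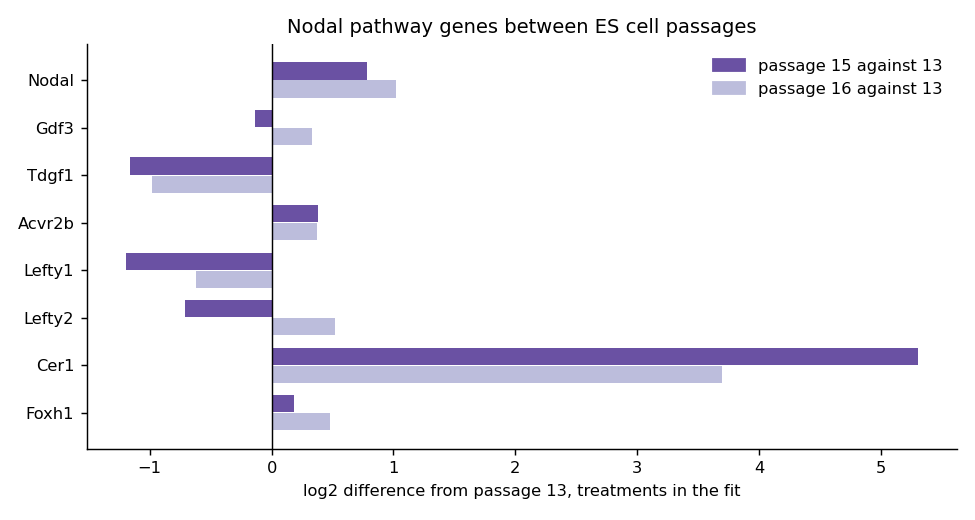
Fitted log2 differences (x axis) of passages 15 and 16 from passage 13 for the 8 genes, with the 4 treatments in the fit. The bars of Cer1 reach 5.30 and 3.69, and those of Tdgf1 and Lefty1 point to lower levels after passage 13.

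Cer1 was the extreme case. Over the 4 treatments it had 0.61 to 5.91 CPM in P13, 57.6 to 191 CPM in P15 and 13.8 to 61.0 CPM in P16, so that all libraries of P13 lay below all others and P15 overlapped P16 only in its 2-DG library. It was 39.5-fold higher in P15 and 12.9-fold higher in P16 than in P13 (log2 5.30 and 3.69, edgeR adjusted p = 7.19e-05). Within P13 the 0X and 2-DG libraries had 5.77 and 5.91 CPM, from 183 and 202 counts, and the 1X and 3X libraries had 0.61 and 0.87 CPM, from 28 and 30 counts. This pairing within P13 rests on 1 library per treatment.

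The 5 definitive endoderm genes were also lowest in P13 in the fit, by unequal amounts. Of the paraxial mesoderm markers some were, and others were not. Of the 6 paraxial mesoderm genes 5 were called between passages, where 46.2% of all genes tested were called. Meox1 and Tcf15 were low in P13, with 36.3 to 112 and 11.1 to 31.7 CPM there and 214 to 313 and 65.4 to 105 CPM in P15. Msgn1 and Hes7 had log2 differences of P15 from P13 of -0.16 each, and of P16 from P13 of 0.75 and -0.061. Hes7 was not called. Of the 5 definitive endoderm genes all were called. Sox17 had 0.41 to 0.53 CPM in P13, 1.47 to 2.63 CPM in P15 and 2.40 to 4.21 CPM in P16. Hhex and Trh differed less. They were 0.21 and 0.13 higher on the log2 scale in P15 than in P13, and 0.45 and 0.80 higher in P16. The summed neural list was at 141 to 250 CPM in P13 and at 60.5 to 120 CPM in P15. The part of these shifts in the passage difference of Cer1 was not tested.

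The remaining genes moved less and not in one direction. Nodal was 1.72-fold higher in P15 and 2.03-fold higher in P16 than in P13 (edgeR adjusted p = 0.0424), and it was not called in 11 of 17 alternative settings. Acvr2b was 1.31-fold and 1.30-fold higher (adjusted p = 4.50e-05). Tdgf1 was 2.23-fold and 1.97-fold lower than in P13 (adjusted p = 0.0112), and Lefty1 was 2.28-fold and 1.53-fold lower (adjusted p = 0.00471). Tdgf1 was not called in 3 of the 17 settings, and Lefty1 and Acvr2b in 1 each.

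Lefty2 had its highest and its lowest level in the same passage. It was highest in P16 in each of the 3 glucose media and lowest of all 12 libraries in the 2-DG library of P16, 16.2-fold below the 1X library of that passage. Its passage difference had an adjusted p of 0.0128. Foxh1 was 1.39-fold higher in P16 than in P13 (adjusted p = 0.0162), and Gdf3 1.26-fold higher (adjusted p = 0.0226). The passage call was lost in 4 of 17 settings for Lefty2, in 5 for Foxh1 and in 6 for Gdf3. Foxh1 in the glucose media ranged from 28.6 to 37.0 CPM in P13 and from 50.2 to 56.8 CPM in P16, while with 2-DG it had 52.8 to 58.1 CPM in all passages.

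A wider list of 34 other genes of the pathway was read in the same fits, and 30 of them passed the filter. With 2-DG against 1X glucose 1 of the 30 was called higher and 5 lower, where 17.6% of all genes were called. With the passage as a block 4 were called higher and 13 lower, where 41.3% were called. Inhbb, Acvr1c, Cfc1 and Fstl3 were near 0 and were not tested. None of the 30 was called in 0X or 3X against 1X glucose, with or without the block. Between the passages 21 of the 30 were called, where 46.2% of all genes were.

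**Figure D4:**
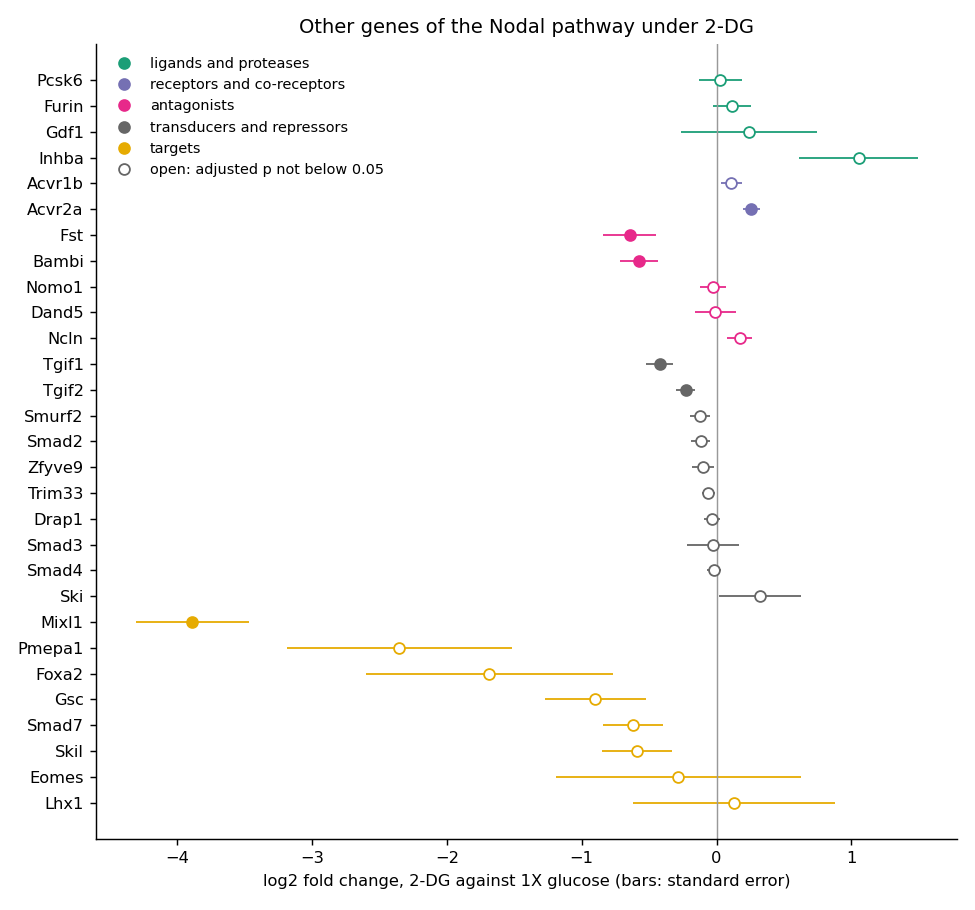
Log2 fold changes (x axis) of 29 of the 30 other pathway genes tested, 2-DG against 1X glucose, with bars of 1 standard error, coloured by role; filled circles mark an adjusted p below 0.05. Of the 8 targets shown 7 lie on the negative side, with Mixl1 at -3.89, and the transducers Smad2, Smad3 and Smad4 lie close to 0.

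The 9 listed targets of the pathway had a median log2 fold change of -0.90 with 2-DG, and 8 of them were negative, although 1 passed the test. That was Mixl1, a homeobox gene of the primitive streak, which had 6.94, 3.63 and 6.68 CPM in 1X glucose and 0.29, 0.27 and 0.59 CPM with 2-DG. It fell in every passage (log2 fold change -3.89, SE 0.42, edgeR adjusted p = 0.00032). Mixl1 is also on the list of streak and tail bud markers, whose sum was lower in these libraries. With the passage as a block, where 41.3% of all genes were called in either direction, 7 of the 9 targets were called lower, among them Mixl1, Smad7, Skil, Pmepa1, Gsc and Foxa2. Some targets had few counts. Pmepa1, Gsc and Foxa2 had 0 to 4, 10 to 24 and 3 to 25 with 2-DG. In 1X glucose they had 8 to 9, 28 to 57 and 16 to 103. Eomes had 6 to 12 counts with 2-DG and 6 to 27 in 1X glucose.

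Lhx1, a homeobox gene of the axial mesendoderm, was the 1 target on the positive side, with a log2 fold change of 0.13 (SE 0.75, edgeR adjusted p = 0.935). It had 16.5, 69.7 and 104 CPM in 1X glucose in P13, P15 and P16, and 41.6, 72.9 and 93.5 CPM with 2-DG. The largest rise was thus in P13, and in P16 the 2-DG library was lower.

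Among the antagonists outside the 8 genes, 2 of 5 tested fell, where 8.51% of all genes did. Fst, which binds activins, had 23.8, 30.4 and 34.0 CPM in 1X glucose and 14.8, 18.7 and 22.9 CPM with 2-DG (log2 fold change -0.64, SE 0.19, edgeR adjusted p = 0.0437). Bambi, a pseudoreceptor of the TGF-beta family, had 15.1, 14.05 and 13.01 CPM and with 2-DG 9.72, 8.01 and 10.5 CPM (log2 fold change -0.57, SE 0.14, adjusted p = 0.0186). For both, all treated libraries were below all controls.

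The Smad transducers stood close to their control levels. Smad2, Smad3 and Smad4 had log2 fold changes of -0.12, -0.025 and -0.018, and none was called without the block. Of the 10 genes in this class 2 were called, both lower, where 17.6% of all genes were called: Tgif1 and Tgif2, homeobox repressors that bind Smads, with log2 fold changes of -0.42 (edgeR adjusted p = 0.0182) and -0.23 (adjusted p = 0.0454). With the block 4 were lower (Tgif1, Tgif2, Smad2 and Smurf2) and 1 was higher (Ski), where 41.3% of all genes were called. The edgeR adjusted p of Smad2 in that fit was 0.00692 at a log2 fold change of -0.12.

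Among the receptors Acvr2a, the other type II activin receptor, rose. It had 30.4, 35.9 and 33.5 CPM in 1X glucose and 40.8, 41.0 and 37.5 CPM with 2-DG (log2 fold change 0.26, SE 0.066, edgeR adjusted p = 0.0227), while Acvr2b was lower in each passage. The type I receptor Acvr1b had a log2 fold change of 0.11 and was not called. None of the 4 ligand and protease genes tested (Gdf1, Inhba, Furin and Pcsk6) was called without the block. Inhba, an activin subunit, was called higher with it (log2 fold change 1.00, edgeR adjusted p = 0.0228), and its libraries with 2-DG lay above all 3 controls. Its counts were low, 14, 18 and 17 in 1X glucose and 18, 21 and 48 with 2-DG in P13, P15 and P16.

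Against 0X glucose 1 of the 30 genes was called higher in 2-DG (Acvr2a) and 4 lower (Mixl1, Pmepa1, Tgif1 and Tgif2), where 18.9% of all genes were called. Fst missed the threshold at a log2 fold change of -0.61 (SE 0.19, edgeR adjusted p = 0.0522), with all 2-DG libraries below all 0X libraries, and it was called with the block (adjusted p = 1.3e-05). Bambi stood at -0.30 (SE 0.14, adjusted p = 0.170) and was not called with the block. Both comparisons use the same 2-DG libraries.

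The genes whose levels ran most like each of the 8 over the 12 libraries, by Pearson correlation of log2 CPM and as a description, were led by Igf2bp1 for Acvr2b (r = 0.99), Adamts9 for Cer1 (r = 0.98) and Ccnd3 for Tdgf1 (r = 0.97). For Foxh1 the closest was Tle6 (r = 0.95), for Lefty2 Tmem189 (r = 0.95), for Nodal 2610318N02Rik (r = 0.94), for Lefty1 Zfp688 (r = 0.94) and for Gdf3 Rian (r = 0.93). All points share passages and treatments. Among the 8 genes themselves the highest values were 0.85 between Lefty1 and Tdgf1, 0.77 between Cer1 and Acvr2b and 0.75 between Nodal and Lefty2.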

How the data were processed

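PolyA RNA of the 12 gastruloid libraries was prepared with a directional kit. Per the labels and the study's methods, the authors trimmed reads with Trim Galore, aligned them to mm10 with HISAT2, used SAMtools and Picard, and estimated counts per RefSeq transcript with StringTie; versions are not given in the sources used here. The deposited values are these estimated counts, whole numbers for 120312 transcripts, not normalised. The authors' own differential expression tables hold fold changes and p-values and were not used.

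Transcript counts were summed per gene symbol with the RefSeq table of GRCm38.p6 (all 120312 transcripts matched, 38911 genes). Genes were filtered with filterByExpr, scaled by TMM and tested two-sided with edgeR 4.0.16 (glmQLFit, glmQLFTest) in R 4.3.3, all 12 libraries in 1 fit by treatment, with Benjamini-Hochberg adjustment over the 16966 genes and a threshold of 0.05. CPM are TMM-scaled. Fold changes within a passage are ratios of CPM. The passage test fitted treatment and passage. The replicate numbers are the ES cell passages in the sample titles, which mark shared cultures. Deviations from the treatment means correlated at r = 0.0963 to 0.623 in the 18 same-passage pairs. Between passages r was at most 0.191, so the ranges overlapped. DESeq2 1.42.0, other size factors, no filter, the most abundant transcript alone, only the groups compared, a replicate block and left-out libraries were the alternatives. An exact permutation test of 3 against 3 cannot go below p = 0.1 and was not used. The test was tried on simulated data with known changes. Lengths and coding sequences came from GENCODE transcripts paired with the RefSeq mRNAs, aligned with Biopython 1.88.

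Depth was 31902471 to 45956080 counts per library, so that genes with few counts carry a large counting error. P-values of the fits without a passage term measure the spread between passages, which are 3 cultures of 1 cell line. In the blocked fits and the passage test they measure the scatter left after passage and treatment are fitted. The passage test takes the libraries of 1 passage as its replicates, so it does not measure the spread between repeated cultures. The 8 genes and the lists were chosen with earlier results of these data known. The named genes are the 8, in every comparison, and those of the wider list that were called in 2-DG against 1X glucose; Lhx1, the Smads, Acvr1b, Inhba, Smurf2, Ski, the marker genes given by name and the targets called with the block were named after their values were seen. Single values of some genes of the lists are not reported here.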

Additional observations from a re-analysis of the deposited data

Results flagged for a closer look

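Cer1 changed in opposite directions with 2-DG in different passages. The log2 ratio of 2-DG to 1X glucose, with 0.5 CPM added to each, was 2.52 in P13, -1.47 in P15 and -1.84 in P16. Each ratio sets 1 library against 1, and the difference between the passages was not tested. In P13 the gene was also at its lowest, with 28 counts in 1X glucose and 202 with 2-DG, against 519 to 6382 counts in the libraries of the other passages. The turn was not particular to Cer1. Meox1 and Tcf15 had 112 and 31.7 CPM with 2-DG in P13 against 36.3 and 11.1 CPM in 1X glucose. Both were lower with 2-DG in P15 and P16. The other paraxial mesoderm markers, Tbx6, Msgn1, Dll1 and Hes7, were lower with 2-DG in P13. A link of these genes to Cer1 was not tested.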

How the results depend on the processing

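The number of the 8 genes called in 2-DG against 1X glucose (2) was 6 with the replicate block, 1 with the most abundant transcript of each gene alone, and from 0 to 3 with libraries left out. Against 0X glucose the number (3) was 8 with the replicate block, 1 with the most abundant transcript alone and from 0 to 3 with libraries left out. Between passages the number (8) was 1 with the most abundant transcript alone and from 5 to 8 with libraries left out (5 without the P13 or the P16 library of 1X glucose or the P16 library of 3X glucose). The most abundant transcript held 100% of the counts of Nodal, Lefty1, Lefty2, Tdgf1 and Cer1 and 99.2% of those of Gdf3. The setting thus left the counts of these genes the same or nearly so, while it changed those of other genes in the fit. The share of all genes called in that setting was not counted, and why the calls were lost was not tested. Nodal was called in 8 of 16 fits of 2-DG against 1X glucose, counting the reported one, and Lefty2 in 14 of 16. The numbers called in 0X and 3X against 1X glucose were 0 in all fits, and the block changed no other call there.

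Directions turned, always without a call, as follows. In 2-DG against 1X glucose Cer1 ranged from -2.83 to 0.0042 on the log2 scale with libraries left out. In 0X against 1X glucose the ranges were -0.096 to 0.64 for Nodal, -0.72 to 0.090 for Lefty1, -0.78 to 0.15 for Lefty2, -0.41 to 0.31 for Tdgf1, -0.39 to 0.019 for Foxh1, -1.08 to 1.73 for Cer1 and -0.018 to 0.22 for Acvr2b, and Acvr2b stood at -0.027 with the most abundant transcript alone. In 3X against 1X glucose they were -0.26 to 0.46 for Nodal, -0.48 to 0.39 for Lefty1, -0.64 to 0.16 for Lefty2, -0.79 to 0.42 for Tdgf1, -0.12 to 0.22 for Foxh1, -1.59 to 1.01 for Cer1, -0.016 to 0.33 for Gdf3 and -0.061 to 0.16 for Acvr2b. The causes were not tested. Counts of 6 to 200 for Nodal, Tdgf1, Lefty1 and Lefty2 limit how small a change of these genes could be seen.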
